A study of Mus musculus with 9 samples.

Results

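The peaks described here are those of NLRC5 ChIP-seq in T cells of Nlrc5F/F mice, which served as the biological repeat of the WT experiment. Each of the 1949 peaks was called shared when it overlapped a peak of at least 1 of the 5 WT lists, named A to E, by 1 bp or more. By this rule 79 peaks (4.05%) were shared and 1870 were unshared. The WT lists hold the study's calls at a relaxed threshold, before its filter for reproducibility between subsets. The study kept far fewer sites after that filter, so most peaks described here are not sites it reported. The shared peaks were the promoters of MHC class I (MHCI) genes, B2m and Tap1, which held 5 of the 6 scores of 20 or more, a stretch of chromosome 5, scattered promoters of genes with other functions, and sites at no promoter across the genome.

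NLRC5 is a nuclear protein of the NOD-like receptor family that activates transcription of MHCI genes, whose products present peptides to CD8+ T cells. It has no known DNA-binding domain of its own and reaches promoters through a complex, the enhanceosome, that contains the RFX factors and NF-Y and assembles on the S, X and Y boxes of the SXY module. In ChIP-seq, fragments of chromatin pulled down with an antibody are sequenced, and regions with more reads than a control are called as peaks.

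Of the 9 samples of the series, the 5 WT lists and the Nlrc5F/F list are compared here, and the Rfx5-/- list is used only for its overlap with Nlrc5F/F peaks. WT and Nlrc5F/F mice were on a C57Bl/6 (H2b) background and Rfx5-/- mice on a mixed Sv129/C57Bl/6 (H2b) background, all aged 6 to 12 weeks. Each genotype is 1 library made from 5 pooled mice, and the antibody was a rabbit polyclonal against the N-terminal part of mouse NLRC5. Nlrc5F/F is the floxed allele without a Cre, and these cells keep a functional Nlrc5 gene.

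Lists A to E are subsets of reads of a single WT library, so they differ by which reads were drawn and tell nothing of how animals vary. The Nlrc5-/- reads served as the control of every list, and the part of this shared control in the overlaps was not tested. A list holds only positions past the calling threshold, gives no read counts, and cannot show whether the cells were T cells, so the depth behind a peak is unknown here. The study's methods give the WT subsets one equal size and state for the Nlrc5F/F library only a lower limit below that size. With 1 library per genotype, the values are given as a description with no test. The score of a peak is its −log10 p-value, and scores of lists of different depth are set side by side without a fold.

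The sequences of the shared MHCI, B2m and Tap1 promoters are shown first because these peaks led the list. Each line starts at the same point of the module on the strand given (GRCm38.p6 reference), except that of H2-D1 and Tap1, where 30 bases about TGAC are shown because annotated untranslated exon sequence covers the module. The capitals mark AAC with the T that follows it, TGAC of the X box 28 bases further on, and the ATTGG of the Y box.
H2-K1 (chr17:34000325-34000421, reverse strand): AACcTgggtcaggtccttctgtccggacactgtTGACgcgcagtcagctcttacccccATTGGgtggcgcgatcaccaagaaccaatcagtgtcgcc
H2-D1 (chr17:35262980-35263009, forward strand): gccgggacactgaTGACgcgctggcaggtc
H2-Q4 (chr17:35379480-35379576, forward strand): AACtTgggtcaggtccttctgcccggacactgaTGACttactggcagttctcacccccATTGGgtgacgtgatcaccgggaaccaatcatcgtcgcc
H2-Q6 (chr17:35424714-35424810, forward strand): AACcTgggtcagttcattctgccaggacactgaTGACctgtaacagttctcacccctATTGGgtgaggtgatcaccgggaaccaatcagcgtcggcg
H2-Q7 (chr17:35439058-35439154, forward strand): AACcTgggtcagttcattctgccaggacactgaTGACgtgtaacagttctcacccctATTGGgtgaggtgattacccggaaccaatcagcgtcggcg
H2-T22 (chr17:36042819-36042915, reverse strand): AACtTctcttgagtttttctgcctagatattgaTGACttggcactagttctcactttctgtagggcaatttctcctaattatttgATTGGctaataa
H2-T10 (chr17:36121536-36121632, reverse strand): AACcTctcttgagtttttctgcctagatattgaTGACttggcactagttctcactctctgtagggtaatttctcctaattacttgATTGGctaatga
Tap1 (chr17:34187457-34187486, forward strand): gcccagagacaggTGACgacagagggtcct
B2m (chr2:122147576-122147672, forward strand): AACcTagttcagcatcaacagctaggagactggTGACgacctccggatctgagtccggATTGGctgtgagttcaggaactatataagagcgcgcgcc

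In the modules, ATTGG began 21 bases after TGAC in H2-K1, H2-D1, H2-Q4 and B2m, 20 bases after it in H2-Q6 and H2-Q7 and 48 bases after it in H2-T22 and H2-T10. The 60 bases after TGAC at Tap1 did not hold ATTGG. The pair of AACNT and TGAC lay inside the Nlrc5F/F peak in 7 of the 9 promoters, reached beyond its edge by 14 bp at H2-Q6, and lay wholly outside it at H2-T22.

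A second set shows shared promoter peaks of other genes, each as the Nlrc5F/F peak on the forward strand, cut at Nicn1 and Smim11 so that at most 30 bases of annotated untranslated sequence are shown. The capitals mark ACTNC and TCCC with 3 bases between them, or the same letters read on the opposite strand (GGGA, then GNAGT). This spacing was chosen after these sequences had been seen. All peaks shown hold the pair, whereas other shared promoter peaks, such as that of Slc35b1, do not.
Ifrd2 (chr9:107587489-107587626, forward strand): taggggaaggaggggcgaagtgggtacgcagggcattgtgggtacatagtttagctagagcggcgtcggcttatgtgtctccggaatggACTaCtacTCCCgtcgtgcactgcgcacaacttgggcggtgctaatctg
Fbxo9 (chr9:78109055-78109187, forward strand): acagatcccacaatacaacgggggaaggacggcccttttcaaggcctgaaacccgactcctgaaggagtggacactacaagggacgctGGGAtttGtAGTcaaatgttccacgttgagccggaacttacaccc
Snx16 (chr3:10440265-10440380, forward strand): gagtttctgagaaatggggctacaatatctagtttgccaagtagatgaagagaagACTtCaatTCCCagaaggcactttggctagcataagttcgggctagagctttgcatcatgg
Nicn1 (chr9:108290381-108290458, forward strand): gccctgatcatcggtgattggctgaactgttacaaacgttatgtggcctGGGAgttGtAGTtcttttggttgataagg
Smim11 (chr16:92301194-92301315, forward strand): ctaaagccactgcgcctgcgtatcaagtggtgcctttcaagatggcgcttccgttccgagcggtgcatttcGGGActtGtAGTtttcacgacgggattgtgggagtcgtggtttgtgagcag

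A last set shows peaks at no promoter, again as the whole Nlrc5F/F peak and with no letters marked. The site near Ly6c2, a gene for a surface protein of leukocytes, was the highest shared peak outside a promoter. The Aida intron site and a pair of sites of the chromosome 5 region were present in every WT list, and the last sequence is the highest peak that no WT list held.
Site near Ly6c2 (chr15:75085779-75085895, forward strand): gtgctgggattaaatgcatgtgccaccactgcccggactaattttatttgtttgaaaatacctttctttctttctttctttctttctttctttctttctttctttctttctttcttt
Aida intron (chr1:183299180-183299370, forward strand): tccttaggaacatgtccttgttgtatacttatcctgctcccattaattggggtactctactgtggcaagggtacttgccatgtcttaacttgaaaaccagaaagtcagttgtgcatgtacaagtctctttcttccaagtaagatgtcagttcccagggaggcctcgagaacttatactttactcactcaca
Site near Gm21149 (chr5:15484206-15484299, forward strand): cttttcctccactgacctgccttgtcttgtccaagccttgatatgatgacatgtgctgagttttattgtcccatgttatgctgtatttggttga
Site near Gm21847 (chr5:15511608-15511733, forward strand): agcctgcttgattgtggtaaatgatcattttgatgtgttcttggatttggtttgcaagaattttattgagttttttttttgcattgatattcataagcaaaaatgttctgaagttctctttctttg
Highest unshared peak (chr3:8246316-8246411, forward strand): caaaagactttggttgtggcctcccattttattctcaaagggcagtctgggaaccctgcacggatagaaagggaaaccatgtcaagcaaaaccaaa

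The WT lists were of unequal length, and each shared only a few of the Nlrc5F/F peaks. List A (459 peaks) overlapped 34 Nlrc5F/F peaks (1.74%) and list B (529 peaks) overlapped 30 (1.54%). List C (1436 peaks) overlapped 46 (2.36%), list D (1043 peaks) 39 (2.00%) and list E (1207 peaks) 45 (2.31%). The number of WT lists that met a shared peak varied: 37 overlapped 1 list, 9 overlapped 2, 10 overlapped 3, 6 overlapped 4 and 17 overlapped all 5. The smallest overlap of a shared peak with a WT peak was 7 bp, in an intron of Depdc1b, and the unshared peak closest to a WT peak, near Gm42642 on chromosome 6, was 13 bp away.

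Shared peaks fell into 5 groups by place. The promoters of the genes that the study names as targets, on the basis of these same libraries, held 9 (11.4% of the shared peaks). These were the only Nlrc5F/F peaks there. The chromosome 5 region held 21 (26.6%), the surroundings of Ly6c2 within 25 kb held 3 (3.8%), promoters of other genes held 20 (25.3%) and other positions held 26 (32.9%). A promoter was taken as 500 bp upstream to 50 bp downstream of the outermost transcription start site (TSS) of a gene in the GENCODE M21 annotation. Unless stated otherwise, TSS below means this outermost start, and starts of other transcripts were not used.

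The share of shared peaks was higher at higher scores. The median score was 6.21 for shared peaks (quartiles 4.32 to 8.20) and 4.28 for unshared peaks (quartiles 4.17 to 5.22). All 6 peaks with a score of 20 or more were shared (95% Wilson interval 61.0% to 100%), as were 8 of 11 peaks with scores from 10 to under 20 (72.7%, 43.4% to 90.3%). Between 8 and 10 the count was 7 of 23 (30.4%, 15.6% to 50.9%) and between 6 and 8 it was 22 of 231 (9.52%, 6.37% to 14.0%). Under a score of 6 sharing was rare and changed little, with 12 of 538 peaks (2.23%) between 5 and 6, 12 of 702 (1.71%) between 4 and 5 and 12 of 438 (2.74%) under 4. These intervals cover the counting of peaks only, and neighbouring peaks are not independent.

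Many peaks had equal scores. The 1949 peaks had 136 distinct scores, and 493 peaks had exactly the median score of 4.28. The order of peaks within such a tie carries no information.

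**Figure D1:**
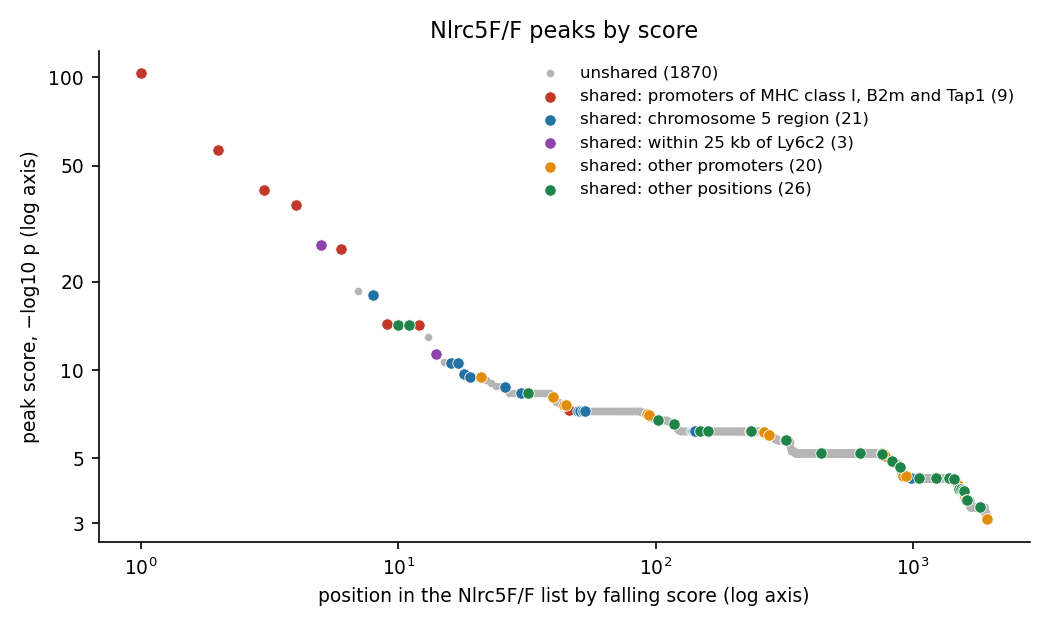
The 1949 Nlrc5F/F peaks in order of falling score, both axes on a log scale. Grey points are unshared peaks and coloured points are shared peaks by place. The 6 highest peaks were shared and led by the promoters of MHCI genes, while below a score of 6 shared peaks were scattered among unshared ones.

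Shared peaks were also wider. The median width was 119 bp for shared peaks (quartiles 95.5 to 182) and 98 bp for unshared peaks (quartiles 94 to 132). Of the 913 peaks of the smallest width in the list, 94 bp, 19 (2.08%) were shared, and these made up 24.1% of shared and 47.8% of unshared peaks. From 95 to under 120 bp 21 of 355 (5.92%) were shared, from 120 to under 150 bp 10 of 369 (2.71%) and from 150 to under 200 bp 15 of 253 (5.93%), against 7 of 50 (14%) from 200 to under 300 bp and 7 of 9 (77.8%) from 300 bp upwards.

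The share was also higher near a TSS. The centre of a shared peak lay a median of 1842.5 bp from the nearest TSS, and that of an unshared peak 19341 bp. Within 100 bp of a TSS, 15 of 37 peaks were shared (40.5%, Wilson interval 26.3% to 56.5%), and from 100 to 500 bp 17 of 73 (23.3%, 15.1% to 34.2%). From 500 bp to 1 kb the count was 5 of 47 (10.6%), and from 10 to 50 kb it was 16 of 830 (1.93%). Beyond 50 kb only 2 of 447 peaks (0.447%) were shared. Without the chromosome 5 region the median distance of shared peaks was 446.75 bp, without WT list A it was 907.25 bp, and with TSSs of protein coding genes only it was 9605.5 bp for shared and 54705 bp for unshared peaks.

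**Figure D2:**
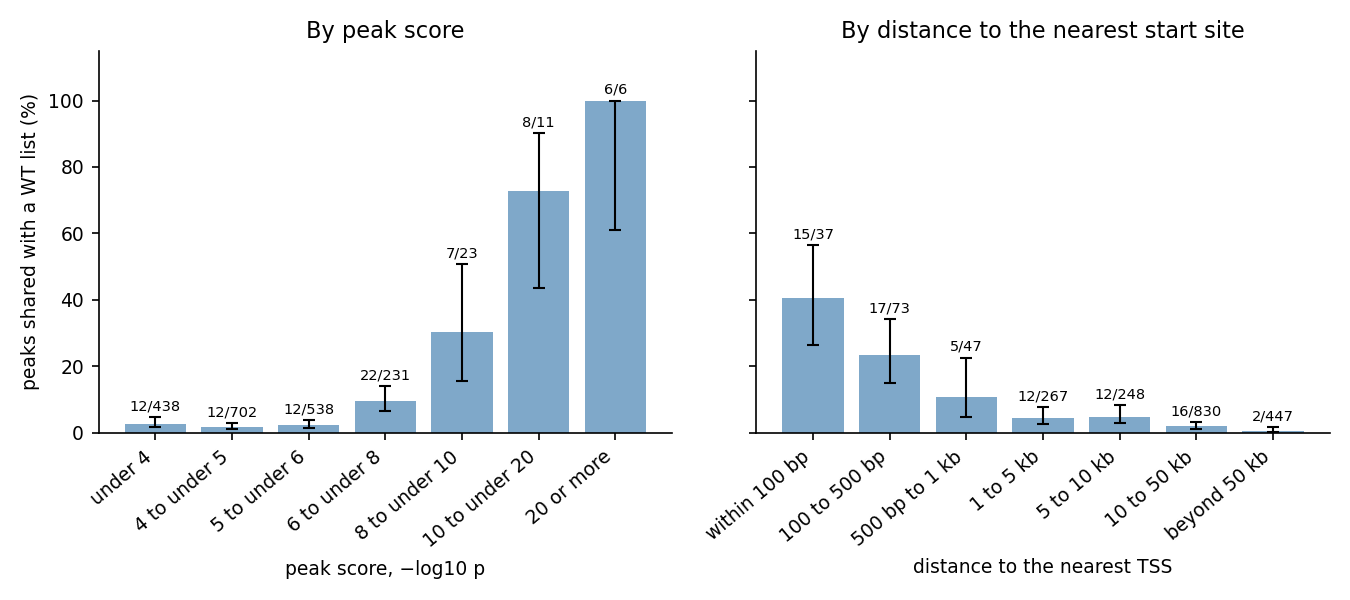
Share of Nlrc5F/F peaks that overlap a WT peak, by score (left) and by distance from the peak's centre to the nearest TSS (right). Bars are percentages with 95% Wilson intervals, and the numbers give shared over all peaks. The share rose from 1.71% at scores of 4 to under 5 to 100% at 20 or more, and fell from 40.5% within 100 bp of a TSS to 0.447% beyond 50 kb.

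The share at promoters was above that elsewhere at low and at high scores. In all, 31 of 94 peaks at a promoter were shared (33%), against 48 of 1855 elsewhere (2.59%). With scores of 5 or more the counts were 23 of 54 at promoters (42.6%) and 32 of 755 elsewhere (4.24%). With scores under 5 they were 8 of 40 (20%) and 16 of 1100 (1.45%). With chromosome 17, which carries the MHC, left aside, 23 of 82 promoter peaks were shared (28%). Of peaks over an annotated exon 24 of 177 (13.6%) were shared, of those in introns 19 of 851 (2.23%) and of those between genes 36 of 921 (3.91%).

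The 9 promoter peaks of MHCI genes, B2m and Tap1 were present in every WT list and 4 of them were the 4 highest peaks of the Nlrc5F/F list. The study chose these targets as peaks reproducible between subsets of the same WT library and found again in Nlrc5F/F cells. Their presence in every list is therefore no finding. Their scores ranged from 6.12 to 103 with a median of 25.8, and their widths from 141 to 750 bp. The B2m peak was on chromosome 2 and the other 8 were in the MHC on chromosome 17. In every one the Nlrc5F/F score was below all 5 WT scores.

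H2-D1 and H2-K1 encode the classical MHCI heavy chains of this haplotype. The H2-D1 peak (chromosome 17, 35262636 to 35263194) had a score of 103 in Nlrc5F/F cells and 214, 244, 174, 173 and 160.2 in WT lists A to E. The H2-K1 peak (34000221 to 34000698) had 41.1, against 119.8, 149.9, 109, 104 and 119.0. Both were among the 4 highest peaks of every list.

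Among the non-classical genes, the peak between H2-T10 and Gm19684 (36121406 to 36122155) scored 56.5 in Nlrc5F/F cells and 193, 203, 153, 151 and 158 in A to E. The H2-Q7 peak (35438816 to 35439114) scored 36.7, against 142, 146, 140.3, 140.3 and 151. These were the second and the fourth highest peaks of the Nlrc5F/F list. H2-Q4 (35379353 to 35379631) scored 14.4, against 104, 112, 98.1, 94.0 and 88.2. H2-Q6 (35424728 to 35424868) scored 14.2, against 32.9, 38.1, 26.0, 34.2 and 20.8. The order of H2-Q4 and H2-Q6 was thus nearly level in Nlrc5F/F cells while H2-Q4 was above H2-Q6 in each WT list.

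The lowest of the 9 was the peak at Gm6034 and H2-T22 (36042922 to 36043099), with 6.12 in Nlrc5F/F cells and 22.7, 27.7, 30.9, 36.4 and 16.6 in A to E. The Tap1 peak (34187342 to 34187500), at the gene for a subunit of the peptide transporter of the endoplasmic reticulum, scored 7.33, against 22.5, 29.8, 19.6, 24.6 and 21.1. B2m, the invariant light chain of MHCI molecules (chromosome 2, 122147292 to 122147912), scored 25.8, against 87.0, 96.7, 86.9, 66.5 and 82.6. At 4 of the 9, Tap1, H2-T22, H2-Q4 and H2-Q6, the Nlrc5F/F score lay within the range of unshared peaks, whose highest was 18.7.

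**Figure D3:**
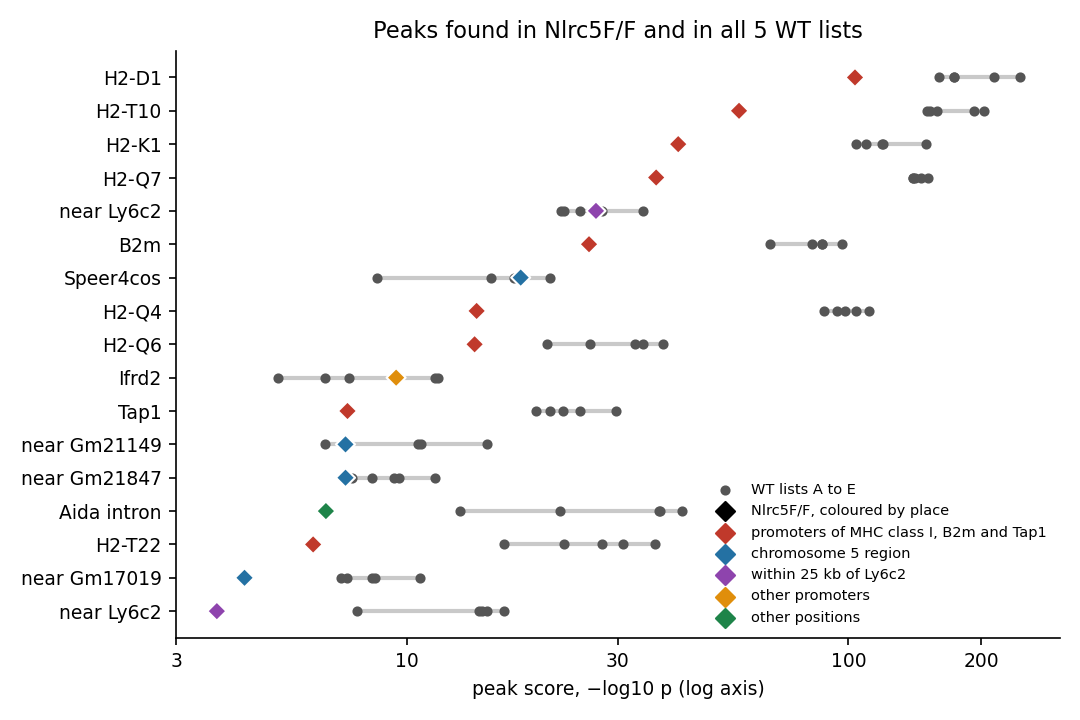
Scores of the 17 Nlrc5F/F peaks that overlapped a peak in all 5 WT lists, on a log axis. Diamonds are Nlrc5F/F scores coloured by place, dots are WT lists A to E and grey lines span them. At the 9 MHCI, B2m and Tap1 promoters the diamond lies left of all dots, whereas at Ifrd2, at Speer4cos, near Gm21149 and at the higher of the sites near Ly6c2 it lies among them.

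The score of Nlrc5F/F cells was not below the WT scores at every kind of shared peak. At the 20 other promoters it was below all overlapping WT peaks in 10, among them in 4 and above them in 6. In the chromosome 5 region these counts were 8, 7 and 6, and at other positions 11, 3 and 12. Many of these peaks overlapped only 1 WT list, so that a single score was set against a single score.

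WT peaks were usually wider than the Nlrc5F/F peak they overlapped. Over the 194 pairs of a shared peak and a WT peak, the centres were a median of 28.5 bp apart and the WT peak was the wider one in 143 pairs (73.7%). The smallest width in a list ranged from 95 bp in D to 124 bp in B, against 94 bp in Nlrc5F/F cells, and with peaks of the smallest width of their list left aside the WT peak was wider in 106 of 143 pairs (74.1%). For the 17 peaks shared with every list this was so in 75 of 85 pairs (88.2%). At H2-T22 the Nlrc5F/F peak spanned 178 bp and the WT peaks 564 to 741 bp, at Tap1 159 bp and 369 to 405 bp, and at H2-Q4 279 bp and 667 to 802 bp. At Speer4cos the order was opposite, with 338 bp in Nlrc5F/F cells and 164 to 260 bp in WT lists.

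The 20 shared peaks at other promoters lay on 13 chromosomes and had modest scores, from 3.10 to 9.44 with a median of 5.17. Of these, 11 met 1 WT list, 4 met 2, 4 met 3 and 1, at Ifrd2, met all 5. All 50-base windows of these 20 peaks occur once in the genome, and 15 of the 20 had their centre upstream of the TSS. The 63 unshared promoter peaks had scores from 3.10 to 7.76 with a median of 4.91.

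The peak between Ifrd2 and Gm16343 (chromosome 9, 107587489 to 107587626) scored 9.44 in Nlrc5F/F cells and 6.52, 11.5, 5.09, 7.37 and 11.8 in A to E, so that the Nlrc5F/F score lay within the WT range. Fbxo9, a substrate adaptor of ubiquitin ligases, shares its promoter peak (chromosome 9, 78109055 to 78109187) with Ick and scored 8.08, against 5.30 in A, 6.92 in C and 5.19 in D. Snx16, a sorting nexin of endosomes (chromosome 3, 10440265 to 10440380), scored 7.04, against 5.43 in C, 6.49 in D and 10.9 in E. Each of the last pair was absent from 2 WT lists.

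Nicn1, a subunit of the tubulin polyglutamylase complex, scored 6.21 in Nlrc5F/F cells, with 8.55 in A, 3.30 in C and 5.31 in D. Slc35b1, a transporter of the endoplasmic reticulum, scored 3.68, with 6.57 in C, 6.92 in D and 5.61 in E. These were the remaining promoters met by 3 WT lists, and at Slc35b1 the Nlrc5F/F score was below all of them.

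The promoters met by 2 WT lists were those of Tomm40l (7.62), Ndufb5 (5.10), Tor2a (4.35) and Sirt2 (3.90), with the Nlrc5F/F score of each given. Ndufb5 is a subunit of respiratory complex I and Sirt2 an NAD-dependent deacetylase. Those met by 1 list were Srd5a1 (7.57), Znfx1 (7.07), Smarcal1 (6.12), 1700003G18Rik (6.00), Cdca3 (5.19), Smim11 (5.15), Dtx2 (4.35), Cfap58 (4.06), Dmxl1 (4.05), Zfp691 (3.75) and Cds2 (3.10). Smarcal1 acts at stalled replication forks and Dtx2 is a ubiquitin ligase of the Notch pathway. None of these genes belongs to the MHC, and their functions were not compared.

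These other promoters differed from the MHCI promoters in the letters they held. Within 300 bases about the peak centre, searched on both strands, the pair AACNT and TGAC with 28 bases between them stood in 8 of the 9 MHCI, B2m and Tap1 peaks and in 0 of the 20 other shared promoter peaks. At H2-T10 the pair lay in the peak but outside that window. It was found in 0 of 63 unshared promoter peaks, in 13 of all 1870 unshared peaks (0.695%) and in 196 of 32851 RefSeq promoters of the same length (0.597%). Since the pair was built from the aligned MHCI modules, its presence there is no finding.

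The pair ACTACA and TCCC, with 2 bases between them, showed the opposite distribution. It stood in 13 of the 20 other shared promoter peaks (65%) and in 0 of the 9 MHCI, B2m and Tap1 peaks. Among unshared peaks it was found in 4 of 63 at promoters (6.35%), namely Kbtbd7, Dync1i2, Gspt1 and Zfp607b, and in 8 of 1870 in all (0.428%). Of the RefSeq promoters 595 of 32851 (1.81%) held it. The looser pair ACTNC and TCCC, which contains the former, stood in 14 of 20 (70%), 5 of 63 (7.94%), 24 of 1870 (1.28%) and 1293 of 32851 (3.94%). Letters of this kind are known from promoters bound by the zinc finger protein ZNF143. Both pairs were drawn from these promoters themselves, so the counts describe these peaks and carry no test.

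The 13 promoters with the ACTACA pair were those of Fbxo9, Znfx1, Snx16, Nicn1, Smarcal1, 1700003G18Rik, Cdca3, Smim11, Tor2a, Dtx2, Dmxl1, Sirt2 and Zfp691. The pair lay inside the peak itself in 9 of them, and beside it in the 300 bases at Snx16, Tor2a, Dtx2 and Dmxl1. The only shared peak with this pair that was counted at no promoter lay over an exon of Banp, 413 bp downstream of its nearest TSS on chromosome 8. That peak scored 5.17 in Nlrc5F/F cells, with 4.62, 5.75, 7.53 and 5.36 in lists A, B, C and E.

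**Figure D4:**
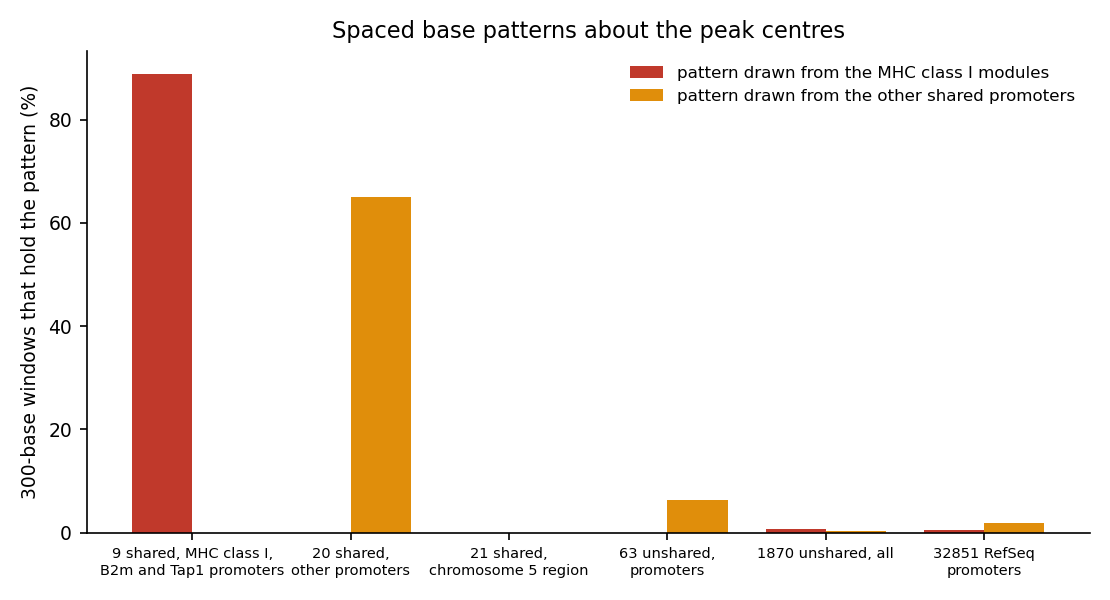
Share of peaks whose central 300 bases held the pair drawn from the MHCI modules (red) or the ACTACA pair drawn from other shared promoters (orange), as percentages with no error bars. The red pair stood in 88.9% of the 9 MHCI, B2m and Tap1 peaks and the orange pair in 65% of the 20 other shared promoter peaks, and neither was found in the chromosome 5 region.

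The shorter strings TGACG and ATTGGC are each longer by a base than the letters marked above. Several of the modules shown do not hold them at the marked place, so their counts do not count modules. TGACG stood in 24.1% of shared peaks, 8.66% of unshared peaks and 20.8% of RefSeq promoters. ATTGGC stood in 16.5%, 9.89% and 14.7% in the same order. At the 9 MHCI, B2m and Tap1 peaks TGACG stood in 66.7% and ATTGGC in 44.4%. The shares were 25% and 30% at the 20 other shared promoter peaks, and 27% and 11.1% at the 63 unshared promoter peaks. Shared peaks had a median GC content of 44.2% and unshared peaks of 39.6%.

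The largest group of neighbours among the shared peaks lay in one stretch of chromosome 5 (14914977 to 15689985, 775 kb). It held 26 Nlrc5F/F peaks, of which 21 (80.8%) were shared, and 13, 13, 23, 23 and 22 peaks in WT lists A to E. It spans 2 separate runs of 5 or more Nlrc5F/F peaks with gaps of at most 100 kb, and no other such run existed in the genome. The first run (14914977 to 15053211) held 7 peaks and the second (15460343 to 15689985) held 19, with no Nlrc5F/F peak between the runs. Outside it 58 of 1923 Nlrc5F/F peaks (3.02%) were shared. Of the 22 shared peaks of chromosome 5, only that of Dtx2 lay elsewhere.

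The annotation gives 12 genes in this stretch, among them Speer4d, Speer4e and Speer4cos of a rodent family of spermatogenesis-associated genes. Scores of the 21 shared peaks ranged from 4.28 to 18.1, and their widths from 94 to 338 bp. In the WT lists 5 of them met 1 list, 4 met 2, 5 met 3, 3 met 4 and 4 met all 5. None of the 26 peaks consisted only of 50-base windows that occur once in the genome, and the median share of such windows was 63.1%. What this repeated sequence adds to the peaks was not tested.

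The highest peak of the stretch, at the Speer4cos promoter (15680569 to 15680906), scored 18.1 in Nlrc5F/F cells and 8.55, 17.5, 17.8, 21.0 and 15.5 in A to E. The site near Gm21149 (15484206 to 15484299) scored 7.25, against 6.52, 7.30, 15.2, 10.7 and 10.6. The site near Gm21847 (15511608 to 15511733) scored 7.25 as well, against 7.51, 9.36, 11.5, 9.59 and 8.32. At the first of these the Nlrc5F/F score exceeded 4 of the 5 WT scores, and at the last it was below all of them. The fourth site present in every list, near Gm17019 (15037439 to 15037552), scored 4.28, against 10.7, 7.30, 7.09, 8.46 and 8.32.

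Other shared peaks of the stretch, all lower than that of the Speer4cos promoter, met fewer WT lists. A second peak near Gm21149 (15486482 to 15486581) scored 10.6 and met C with 10.4, and one near 4930572O03Rik (15639972 to 15640116) scored 10.6 and met D with 7.37. A peak near Speer4e (14955310 to 14955412) scored 9.72, against 7.06 in D and 9.95 in E. Further peaks beside Speer4cos scored 9.44 (15681684 to 15681839) and 8.33 (15689869 to 15689985), and met 2 and 3 WT lists.

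The Rfx5-/- list met these groups unevenly. Of the 79 shared peaks 16 (20.3%) overlapped an Rfx5-/- peak, and of the 1870 unshared peaks 5 (0.267%) did. In the chromosome 5 region 11 of the 21 shared peaks (52.4%) did, whereas at the 9 MHCI, B2m and Tap1 promoters 0 did. Of the 20 other promoters 2 did, Ifrd2 with an Rfx5-/- score of 9.10 and Cds2 with 6.68. The Rfx5-/- library is single, is on another background and shares the control, so these cannot be told apart from the genotype.

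**Figure D5:**
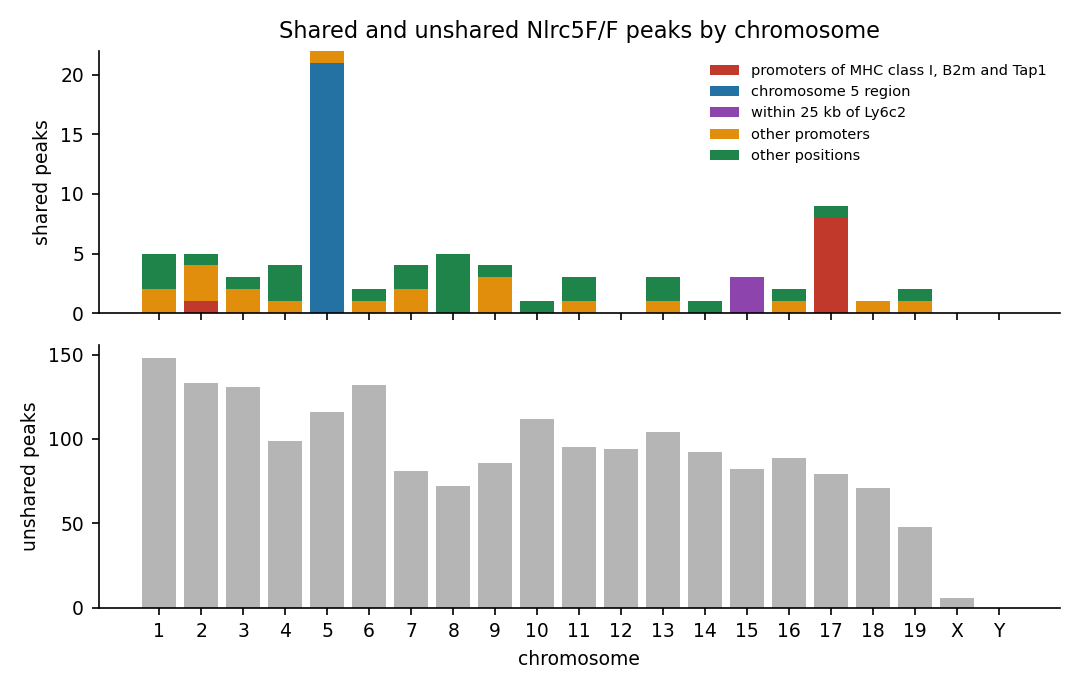
Number of shared (upper) and unshared (lower) Nlrc5F/F peaks per chromosome, with shared peaks coloured by place. Chromosome 5 held 22 shared peaks, 21 of them in one region, chromosome 17 held 9 and chromosome 12 held 0, while unshared peaks were found on every autosome.

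Peaks in partly repeated sequence were shared more often than others. Of the 1808 peaks whose 50-base windows all occur once in the genome, 42 (2.32%) were shared. Of 128 peaks with 50% to under 100% of such windows, 29 (22.7%) were shared, and of 13 peaks with less than 50%, 8 (61.5%) were. The chromosome 5 region supplied 21 of these 37 shared peaks, and 6 were MHCI promoters, whose genes have close copies.

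Near Ly6c2 on chromosome 15, all 3 Nlrc5F/F peaks were shared. The highest (75085779 to 75085895) scored 26.8, against 22.3, 22.6, 27.7, 34.2 and 24.6 in A to E, so that it lay within the WT range and held the fifth place in the Nlrc5F/F list. The nearest annotated gene, Gm28502, starts 6743 bp from its centre, and 48.7% of its 50-base windows occur once in the genome. A neighbour (75086772 to 75087003) scored 3.70, against 14.6, 15.2, 16.6, 7.71 and 14.8. The third peak (75086292 to 75086386) scored 11.3 and met list C only, with 16.7.

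The peak in an intron of Aida (chromosome 1, 183299180 to 183299370) scored 6.55 in Nlrc5F/F cells and 37.2, 22.2, 37.5, 13.2 and 41.9 in A to E. It was the only shared peak outside promoters, the chromosome 5 region and the surroundings of Ly6c2 that met every WT list. An Rfx5-/- peak with a score of 25.4 overlapped it.

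The other 25 shared peaks at other positions were mostly met once. Of the 26 peaks including Aida, 20 met 1 WT list, 1 met 2, 1 met 3, 3 met 4 and 1 met 5. The highest lay in an intron of C130026I21Rik on chromosome 1 (85253096 to 85253199), scored 14.2 in Nlrc5F/F cells and met D (15.6) and E (11.2). A peak near Gm25352 on chromosome 3 (5860433 to 5860813) scored 14.2 as well and met B (6.05), C (7.53), D (5.36) and E (4.69). In both, fewer than 60% of the windows occur once in the genome (57.7% and 57.2%). The next in order, near Gm48848 on chromosome 9, scored 8.33 and met C with 4.17.

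The unshared peaks were many, mostly low in score and mostly far from a TSS and from WT peaks. Of these, 153 lay over exons, 832 in introns and 885 between genes (47.3%, against 45.6% of shared peaks). Only 3 of the 1870 had a score of 10 or more, and 1116 (59.7%) had a score under 5. The median gap to the nearest WT peak on the chromosome was 184660 bp. A WT peak lay within 1 kb of 19 of them (1.02%) and within 10 kb of 104 (5.56%).

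The highest unshared peak (chromosome 3, 8246316 to 8246411) scored 18.7, ranked seventh in the list and lay 32031.5 bp from the TSS of Gm7103. The nearest WT peak was 251136 bp away, and 52.1% of its windows occur once in the genome. The second (chromosome 18, 61019345 to 61019905) scored 12.9 over 561 bp and was the widest unshared peak. It overlapped an exon of Cdx1, a homeobox gene of the intestine, and all its windows occur once in the genome. The third (chromosome 1, 85299352 to 85299482) scored 10.7, in an intron of Gm2619, 6719 bp from a WT peak.

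The next unshared peaks scored 9.44 near Gm5507, 9.21 near Gm10354 in the chromosome 5 region, 9.02 near Gm43144 and 8.81 near both Gm22451 and Gm13392, followed by ties at 8.33. None of the 8 highest lay at a promoter.

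At promoters the 63 unshared peaks had a median score of 4.91, against 4.28 for the 1802 at other positions. Their maximum was 7.76 against 18.7, but a maximum tends to be higher in a larger set, so the maxima are not comparable. The highest of the 63 was at Coasy, the enzyme of the last steps of coenzyme A synthesis, with 7.76, followed by AC122252.1 with 7.25, Kbtbd7 with 7.18 and Dync1i2, a dynein intermediate chain, with 6.87. Rnf6 and Eif2ak3, the kinase PERK of the unfolded protein response, had 6.73 each. No gene of the MHC, antigen processing, enhanceosome or lymphocyte marker lists had an unshared promoter peak. Only 45 unshared peaks lay at promoters of protein coding genes, of which the annotation holds 21951. Lists this short would hold few or none at that share, so their absence says nothing particular of these genes.

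By gene list, the shared peaks covered few members. Among all 21951 protein coding genes of the annotation, 62 (0.282%) had a shared peak within 5 kb of the TSS or in the gene, and 1015 (4.62%) had any Nlrc5F/F peak there. Of 30 MHCI genes of the locus, 7 had a shared promoter peak (H2-T22, H2-T10, H2-Q7, H2-Q6, H2-Q4, H2-K1 and H2-D1), and 1, H2-M6-ps, had an unshared peak 3675.5 bp from its TSS with a score of 4.28. Of 14 genes of antigen processing, B2m and Tap1 had a shared promoter peak and Psmb9, a subunit of the immunoproteasome that faces Tap1, had the same peak 343 bp from its TSS. The study counts Psmb9 as a promoter target, and the wider WT site there reached the Psmb9 promoter. The study also lists a RefSeq start of Psmb9 that places the module upstream of the gene, and that start was not used here. Of 10 MHC class II genes 0 had a peak within 5 kb or in the gene. For 11 T-cell marker genes and 4 B-cell marker genes the count was 0 as well, and lists this short would hold few such genes at the share of all coding genes. The only peaks in the enhanceosome and NOD-like receptor lists were unshared and inside genes, in Nfyc (3.59) and in Nod1 (6.21), and Nlrc5 itself had none.

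Read from the WT side, the share of sites found again in Nlrc5F/F cells rose with the number of WT lists that held them. It was 37 of 3931 sites (0.941%) for sites in 1 list, 9 of 178 (5.06%) in 2, 8 of 42 (19%) in 3, 7 of 24 (29.2%) in 4 and 17 of 32 (53.1%) in all 5. The median WT score of these sites rose as well, from 4.48 in 1 list to 5.23, 5.30, 6.29 and 11.2 in 2 to 5 lists. The number of lists was therefore not told apart from the strength of a site in the 1 WT library. Of the 10 highest peaks of each WT list, all 10 overlapped an Nlrc5F/F peak in A to D and 9 in E. Among the 100 highest the counts were 20 to 27.

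The 15 sites present in every WT list without an Nlrc5F/F peak were weaker than the 17 with one. The median over sites of the WT median score was 8.35 for the former and 27.7 for the latter. They included the promoters of H2-M3, which presents formylated peptides, with WT scores of 7.42 to 15.1, and H2-K2, with 9.45 to 13.5. Both sides of the H2-Q7 peak also had WT sites without an Nlrc5F/F peak, at gaps of 142 and 269 bp from it. Those outside the MHC were at or near Phf12, Lars, Chchd4, Prcc, Ldb1, Gm37070 and Gm15247, and none had a WT median score above 11.6.

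The remaining 4 of these sites lay on the mitochondrial genome, with 3, and on chromosome Y, with 1 near Mid1-ps1. The Nlrc5F/F list held 0 peaks on either, while the WT lists held 6 to 9 mitochondrial peaks and 3 to 5 on chromosome Y. On chromosome X the Nlrc5F/F list held 6 peaks, none of them shared, and the WT lists 2 to 5. The study's methods give mice as matched for sex without naming it, and what the mice of each pool contribute to these counts was not tested.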

How the data were processed

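NLRC5 ChIP-seq libraries of mouse T cells were sequenced by the authors on an Illumina instrument. Per the study's methods and the submitters' processing notes, reads were handled with CASAVA 1.8.2, mapped to GRCm38 with Bowtie 0.12.7 and kept if uniquely placed, and peaks were called with MACS2 2.0.10.20130520 at a relaxed p-value threshold with Nlrc5-/- reads as control. Settings for the Nlrc5F/F list are not given separately. The deposited lists hold positions and a score, which was read as −log10 of the p-value because the lowest score of each list is just above 3. Keeping uniquely placed reads lowers peaks in repeated sequence. Read depth is not given in the lists.

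Overlaps, TSS distances (peak centre, GENCODE M21 genes, GRCm38) and letter searches (GRCm38.p6 reference, 32851 RefSeq promoters of 300 bases) were computed with Python 3.11.15, numpy 2.4.6, pandas 2.3.3, scipy 1.17.1 and pysam 0.24.0. The overlap count and the search for 50-base windows that occur once were tested on simulated data. Positions are counted from 1.

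Members, gene lists and named genes were chosen with earlier results of these data known. Named were peaks shared with all 5 WT lists, shared promoter peaks, the 10 highest shared peaks at no promoter, the 10 highest unshared peaks, WT sites of all 5 lists without an Nlrc5F/F peak and the study's target genes. Banp, Gspt1, Zfp607b, Depdc1b, Gm42642 and the highest unshared promoters were named after their values were seen, as were the chromosome 5 region and both letter pairs. Alternatives were peaks extended by 200 bp, scores from 5 upwards, overlaps covering 50% of each of the 2 peaks, mitochondrial peaks left out, each WT list left out, presence in 3 lists, and other promoters or TSSs. Leaving out the chromosome 5 region was added after the data were seen. No test was run, since each genotype is 1 library.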

Additional observations from a re-analysis of the deposited data

Results flagged for a closer look

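At the lower site near Ly6c2 (chromosome 15, 75086772 to 75087003), the WT score of list D was 7.71, far from the 14.6 to 16.6 of the other WT lists. The distance to the nearest of them took 0.776 of the whole range. The Nlrc5F/F peak there scored 3.70. This was the only one of 20 groups of 5 values in which a value stood apart in this way. The 5 values come from subsets of 1 library, so no chance rate was worked out, and 1 such value among 20 groups may be chance.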

How the results depend on the processing

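Of 111 recomputed values, 101 stayed within 1.5 times the count or within the 95% interval of the median. With the alternatives that leave out a WT list set aside, 51 of 61 stayed and 10 moved. The Nlrc5F/F list held 0 mitochondrial peaks, so leaving such peaks out could not change the counts and medians of its peaks. With scores of at least 5 in every list, shared peaks fell from 79 to 45 of 809, shared promoter peaks from 31 to 20 and unshared ones from 63 to 34, and the median score was 7.25 for shared and 5.22 for unshared peaks. This setting removes every peak with a score under 5 from the Nlrc5F/F list and the WT lists, so its counts and medians describe a smaller set of higher peaks. With promoters of 1 kb on both sides, unshared promoter peaks numbered 125. The median TSS distance was 9605.5 bp for shared peaks with protein coding genes only, and for unshared peaks 54705 bp with these and 14021 bp with every transcript. Sites in at least 3 WT lists with an Nlrc5F/F peak numbered 32 of 98, against 17 of 32 in all 5. Leaving out each WT list in turn gave 68 to 75 shared peaks, 25 to 31 shared and 63 to 69 unshared promoter peaks, median scores of 6.21 and 4.28, median widths of 117 to 130 bp and 97 to 98 bp, median TSS distances of 907.25 to 2006 bp and 19277.5 to 19328.5 bp, and 17 to 20 sites. An overlap of 50% of both intervals gave 64 shared peaks, and extension by 200 bp gave 90. Without the chromosome 5 region, an alternative chosen after seeing the data, 58 of 1923 peaks were shared. No paired analysis was possible because the letters A to E name subsets of 1 library and the result comes from no test. The lists give no reads below the calling threshold, so a peak missing from a list may be a weaker signal not detectable at its depth.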
